A study of Mus musculus with 12 samples.

Results

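The Sox9 gene and the gene desert around it were examined in 4 lists of open chromatin from mouse intestinal epithelium. The locus was taken as chr11:110950000-113100000 on mm9, a window of 2.15 Mb, and its members are all consensus peaks that overlap it. There were 247 such peaks among the 210325 peaks of the 4 lists, and merging overlapping peaks gave 95 regions among 82365 in the genome. Sox9 was placed near 112643500 to 112649100, given to the nearest 100 bp, and its start divides the window into 1.69 Mb upstream and 0.46 Mb downstream. Distances are from the midpoint of a peak or region to that start.

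Sox9 encodes an HMG-box transcription factor of the intestinal crypt. In the intestine it is a target of Wnt signalling, is present in stem and progenitor cells, and is needed for Paneth cells to form. In other tissues, among them cartilage, the developing face and the gonad, Sox9 is controlled by enhancers that are spread over the desert, many of them far upstream of the gene. In the RefSeq annotation of GRCm38.p6, which was used for gene order only, the flanking genes are Kcnj2, which encodes an inwardly rectifying potassium channel, and Slc39a11, which encodes a member of a zinc transporter family. Between Kcnj2 and Sox9 that annotation has 7 genes, 5 of them long noncoding RNAs, 1 pseudogene and 1 protein-coding gene (Gm11677). Between Sox9 and Slc39a11 it has 9 genes, all long noncoding RNAs, among them 2610035D17Rik and 1700012H19Rik. Positions on that build were not carried over to mm9, so no peak was assigned to these genes.

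The assay was Omni-ATAC-seq, which marks accessible DNA by insertion of the Tn5 transposase. All cells came from C57Bl/6 mice with a Sox9EGFP reporter and were sorted into 4 populations by reporter level, Sox9 Negative, Sox9 Sublow, Sox9 Low and Sox9 High. Each population had 3 libraries (12 in all), with 12000 cells collected per population; age, sex and treatment are not in the labels, and the populations share the reporter. In earlier work with a Sox9-EGFP mouse, the Negative fraction was rich in differentiated cells, the Sublow fraction in transit-amplifying progenitors, the Low fraction in stem cells of the crypt base, and the High fraction in enteroendocrine and other secretory cells. That mouse carries the reporter on a bacterial artificial chromosome with Sox9 and flanking DNA, and reads from such an insert map to the same positions as reads from the endogenous locus in each population. The labels do not say how the reporter was built, or whether libraries came from separate animals.

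Each population is given as 1 consensus list of peak positions, with no height, read count or value per library. Depth is therefore unknown, no value below has a replicate error, and no test across samples could be made. A list holds a region where it has a peak there, and a region missing from a list had no consensus peak, which does not show that the DNA was closed. Shares have exact (Clopper-Pearson) 95% intervals, which cover counting error only and treat regions as independent, although neighbours in the desert share a locus and the 95 regions also count among the 82365.

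The Negative list was the sparsest over the desert, and the Low and High lists the densest as deposited; with the widest peaks of each list in equal number, Low (24 peaks) was below Sublow (25), and Negative (17) was still the lowest. Negative had 42 peaks, Sublow 56, Low 75 and High 74, and they covered 17.1 kb, 29.6 kb, 34.8 kb and 31.9 kb in that order. These peaks were 0.0924% of the Negative list (interval 0.0666 to 0.125%), 0.107% of Sublow (0.0812 to 0.14%), 0.129% of Low (0.101 to 0.161%) and 0.136% of High (0.107 to 0.171%). Differences between these shares were not tested. Peaks were 1.76 times as many in High as in Negative over the desert, against 1.2 times over the whole lists, and 1.79 times as many in Low as in Negative, against 1.28 times. Among the 735 windows of the same length with 20 or more Negative peaks, 93.9% had a lower ratio of High to Negative peaks than the desert, and the median window had 1.15. This place among windows is a description.

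**Figure D1:**
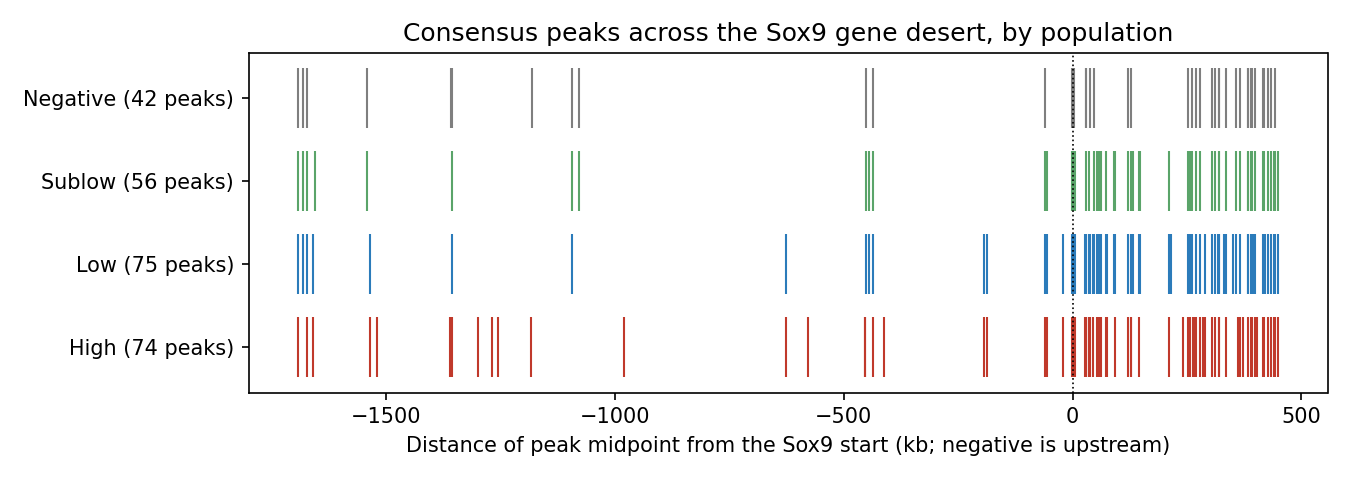
Consensus peaks of the 4 populations across the Sox9 desert. The x axis is the distance of each peak's midpoint from the Sox9 start in kb, each vertical line is 1 peak, the rows are the populations from Negative at the top to High at the bottom, and the dotted line is the Sox9 start. Peaks are crowded downstream of the gene (Negative 29, Sublow 42, Low 56, High 50) and sparse upstream (13, 14, 19 and 24 in the same order).

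The peaks were concentrated on the short downstream side in every list. Downstream of the start lay 29 of 42 Negative peaks (69.0%, interval 52.9 to 82.4%), 42 of 56 Sublow peaks (75.0%, 61.6 to 85.6%), 56 of 75 Low peaks (74.7%, 63.3 to 84.0%) and 50 of 74 High peaks (67.6%, 55.7 to 78.0%). Downstream, Negative had 63.5 peaks per Mb, Sublow 92.0, Low 123.0 and High 110.0. Upstream, Negative had 7.68 peaks per Mb, Sublow 8.27, Low 11.2 and High 14.2. The desert as a whole had 19.5 peaks per Mb in Negative, against 17.7 in the rest of the genome and 28.9 in the rest of chromosome 11. In High it had 34.4 peaks per Mb, against 21.1 in the rest of the genome and 33.6 in the rest of chromosome 11. In each of the 4 lists the upstream density was below, and the downstream density above, that of the rest of the genome and of the rest of chromosome 11.

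All 4 lists had peaks at the Sox9 gene. Reads from a reporter insert that carries Sox9 DNA would map there too, so these peaks cannot be assigned to the endogenous gene alone. A region across the start (chr11:112643336-112644356) was held by every list. The Negative peak was 880 bp wide, the Sublow peak 986 bp, the Low peak 998 bp and the High peak 1021 bp. Inside the gene the peaks ended at nearly the same base, at 112644330 in Negative, 112644353 in Sublow and Low, and 112644356 in High. The upstream edge lay 49 bp before the start for Negative, 132 bp for Sublow, 144 bp for Low and 164 bp for High. All 4 peaks shared 880 bp, the whole of the Negative peak.

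The region nearest upstream, centred 0.8 kb before the start (chr11:112642307-112642995), was also held by every list. The peak widths were 298 bp (Negative), 346 bp (Sublow), 615 bp (Low) and 682 bp (High). Low and High peaks here were thus wider than those of Negative and Sublow, and all contained the 298 bp of the Negative peak. Peak width is no measure of signal height, which the lists do not give.

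Within the gene, 2.6 kb after the start, a merged region (chr11:112645728-112646505) was held by all 4 lists but not at the same bases. The Sublow peak (489 bp, 112645728 to 112646216) and the Low peak (194 bp, 112645736 to 112645929) lay in its 5′ part. The Negative peak (222 bp, 112646259 to 112646480) lay in its 3′ part, 329 bp beyond the Low peak, and the High peak (703 bp, 112645803 to 112646505) reached across both. It was the only 1 of the 28 desert regions with 1 peak per list that had no base in all 4 peaks. Over the genome, 102 of 25643 such regions (0.398%) had none.

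Just beyond the gene end, 6.4 kb after the start, Negative had no peak. At this region (chr11:112649710-112650085) Sublow had a peak of 307 bp, Low of 376 bp and High of 209 bp. It is the nearest region to Sox9 that 1 of the populations lacked, and the list without it was that of the lowest reporter level.

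**Figure D2:**
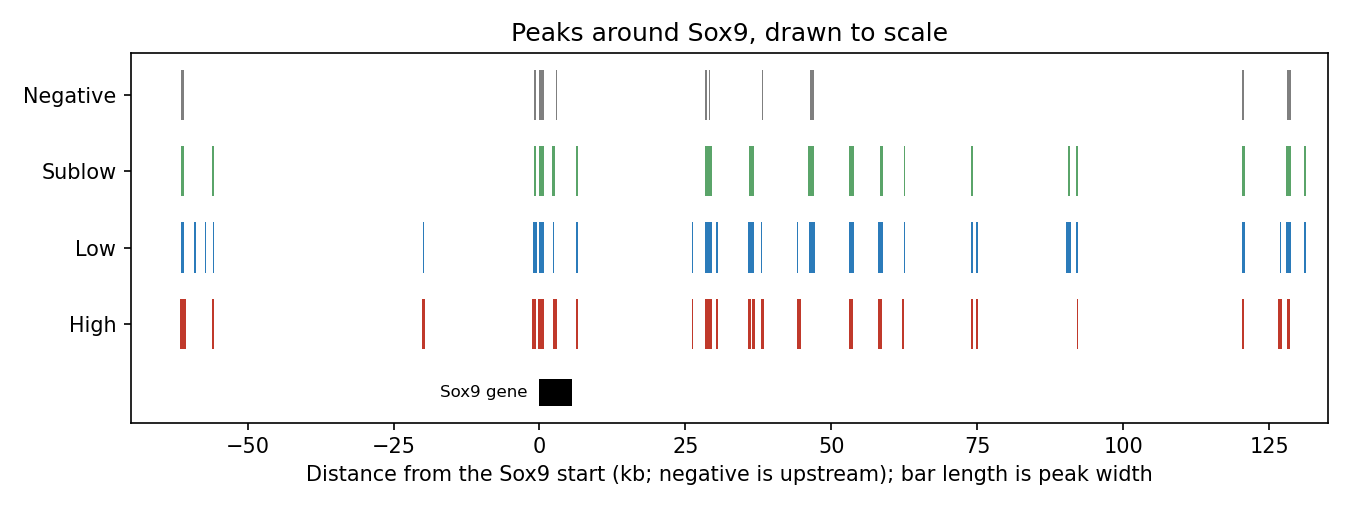
Peaks around Sox9, on both sides of the gene. The x axis is the distance from the Sox9 start in kb, each bar is 1 peak drawn to its width, the rows are the populations and the black bar is the gene. Of the 14 regions between 10 and 100 kb downstream, Negative held 3, Sublow 9, Low 14 and High 12. Over the genome the lists held 53.9%, 62.8%, 69.8% and 65.1% of regions in the same order.

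The stretch from 10 to 100 kb downstream held a row of open regions in the Low and High lists that was largely missing from Negative. Of its 14 regions, Negative held 3 (21.4%, interval 4.66 to 50.8%), Sublow 9 (64.3%, 35.1 to 87.2%), Low all 14 (interval from 76.8%) and High 12 (85.7%, 57.2 to 98.2%). Over the rest of the genome, Negative held 53.9% of regions, Sublow 62.8%, Low 69.8% and High 65.1%. The Negative interval lies below the genome share of Negative and the Low interval above that of Low, but the 14 regions are neighbours at 1 locus and the stretch was described with its values known. In the whole first 100 kb downstream there were 17 regions, of which Negative held 5, Sublow 12, Low 17 and High 15.

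In this stretch 6 regions were missing from Negative only, a pattern that 7.49% of all regions had. The widest of them, 36.3 kb downstream (chr11:112679279-112680352, 1074 bp), had 1 Sublow peak of 890 bp, 1 Low peak of 919 bp and a pair of High peaks of 538 and 380 bp. The others lay 53.4, 58.4, 62.3, 74.1 and 92.1 kb downstream, all with peaks in Sublow, Low and High. At 53.4 kb the Sublow peak was 844 bp wide, the Low peak 873 bp and the High peak 649 bp, with no Negative peak.

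A further 4 regions in the stretch were held by Low and High only, the pattern of 5.98% of all regions. They lay 26.2, 30.5, 44.4 and 74.9 kb downstream. At 44.4 kb (chr11:112687595-112688255) the High peak was 661 bp wide and the Low peak 173 bp, whereas at 26.2 kb they were near in width, with 209 bp in High and 257 bp in Low. The remaining 4 regions of the stretch each had their own pattern.

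The region held by every list in this stretch lay 29.0 kb downstream (chr11:112671854-112673089, 1236 bp) and was the third widest that all 4 populations had in the desert. Sublow, Low and High each had 1 peak there, of 1141, 1152 and 1163 bp. Negative had a pair of narrow peaks, of 280 and 237 bp, in its place. The Negative list therefore covered less of it than each of the other lists did.

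The last 3 regions of the stretch were each missing from the High list, from Sublow, or from both ends of the range. At 46.6 kb downstream (chr11:112689580-112690620, 1041 bp) High had no peak, and Negative, Sublow and Low had peaks of 718, 1008 and 1015 bp. It was the widest desert region missing from High only, a pattern of 8.92% of all regions. At 90.6 kb (chr11:112733744-112734511) Sublow had a 478 bp peak and Low a 768 bp peak, and neither end of the reporter range had any. At 38.2 kb (chr11:112681395-112681918) Sublow alone lacked a peak, and the Negative peak was 133 bp wide, the Low peak 197 bp and the High peak 524 bp, a pattern of 0.357% of all regions.

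From 100 to 450 kb downstream, toward Slc39a11, regions of every list and regions of a single list were more common than between 10 and 100 kb. The single-list share was near that of the genome. Differences of the shares in this part from those of the genome were not tested. Of 45 regions there, 20 were held by all 4 lists (44.4%), against 33.1% of all regions in the genome and 1 of 14 between 10 and 100 kb. A single list held 13 of the 45 (28.9%), against 31.9% over the genome and 0 of 14 between 10 and 100 kb. Negative held 23 of the 45 (51.1%, against 53.9% over the genome) and Sublow 30 (66.7%, against 62.8%), both near their genome shares. Low held 38 (84.4%, against 69.8%) and High 34 (75.6%, against 65.1%). Low and High shared 27 of the 45, against 12 of 14 nearer the gene and 38677 of 82365 over the genome. The widest region of the desert, 426.9 kb downstream (chr11:113069736-113071143, 1408 bp), was open over nearly its whole length in each list: 1305 bp for Negative, 1408 bp for Sublow, 1395 bp for Low and 1380 bp for High, with 1305 bp common to all. At 365.6 kb (chr11:113008480-113009741) Sublow had a 1229 bp peak, against 653 bp in Negative, 767 bp in Low and 643 bp in High. At 319.3 kb (chr11:112962250-112963292) Sublow had 1 peak of 1043 bp where Low had a pair of 305 and 473 bp, Negative 483 bp and High 393 bp. The bin from 300 to 400 kb had 17 regions, as many as the bin next to the gene, but Negative held 12 of them, against 5 of the 17 next to the gene. Over the genome Negative held 53.9% of regions.

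The single-list regions of this part were 7 of High and 6 of Low, from 58 to 284 bp wide, and lay among the common ones. Negative had no peak from 128.7 to 252.8 kb, its longest downstream stretch without a peak (124.1 kb), where Sublow held 4 regions, Low 5 and High 3. Part of that stretch, from 112792058 to 112853174, held no peak of any list. The farthest region, 450.0 kb downstream (chr11:113093127-113093903), was missing from Negative and had a Sublow peak of 646 bp, a Low peak of 763 bp and a High peak of 734 bp. It lay 6.1 kb inside the window, and the next region beyond the window was 14.4 kb outside it and held by all 4 lists.

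Downstream regions were nested around the Low list when peaks were joined where they touched or shared 1 bp or more. Values of this nesting under stricter joining or a minimum peak width are not given here. Low held all 42 downstream regions of Sublow (interval from 91.6%), against 90.3% of Sublow regions over the genome. It also held all 28 downstream regions of Negative (interval from 87.7%), against 79.3% over the genome. Among the 28 is the merged region 2.6 kb after the start, where the Low and Negative peaks shared no base. Low held 42 of the 49 downstream regions of High (85.7%, 72.8 to 94.1%), against 72.1% over the genome. The 7 that it lacked were held by High alone. Upstream, Low held 11 of 14 Sublow regions, 9 of 13 Negative regions and 14 of 24 High regions. Desert regions missing from Low only numbered 0 of 95, but 1 with peaks of at least 200 bp and 2 with the widest peaks. Over the genome 0.526% of regions had this pattern, so the 0 is near the genome share and says nothing more about nesting.

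**Figure D3:**
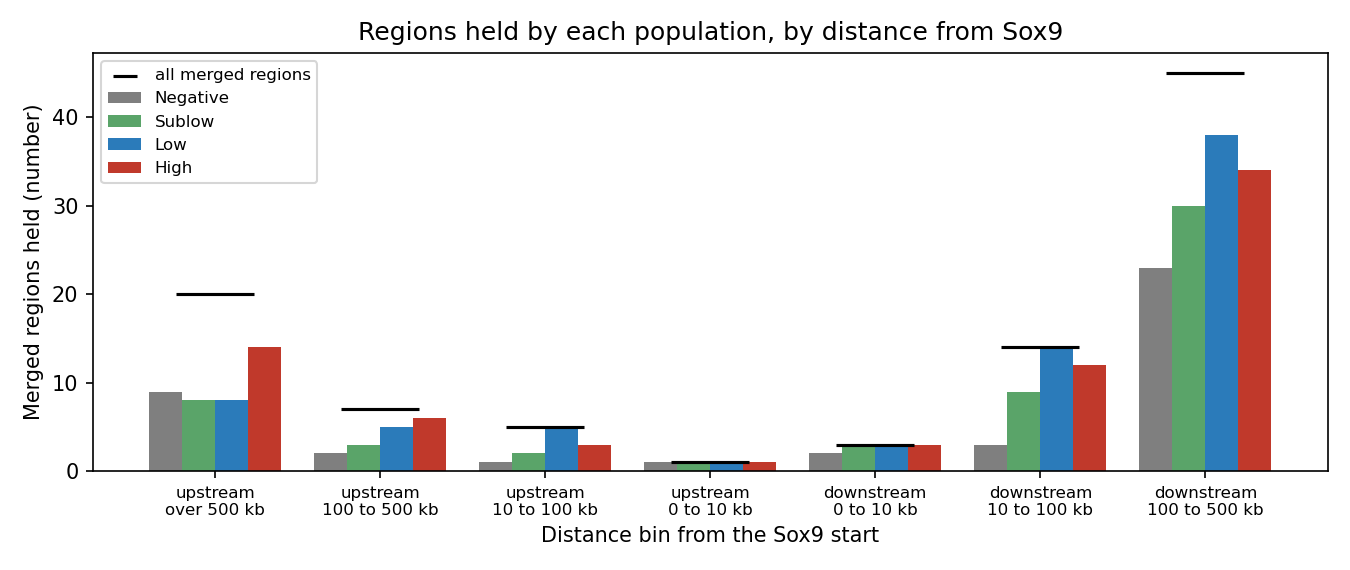
Number of merged regions that each population held, by distance bin from the Sox9 start. Bars are the populations in the order Negative, Sublow, Low and High, and the black line is the number of regions of any list in the bin. Upstream over 500 kb, High held 14 of 20 regions (70.0%, against 65.1% over the genome) and the other lists 8 or 9. Between 10 and 100 kb downstream Low held all 14 (against 69.8% over the genome) and Negative 3 (21.4%, against 53.9%).

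Close upstream of Sox9, 5 regions lay between 10 and 100 kb. Low held all 5, against 69.8% of all regions in the genome. At 61.0 kb (chr11:112581984-112583035, 1052 bp) every list had a peak. The High peak was the widest at 1052 bp, followed by Negative at 619 bp, Sublow at 525 bp and Low at 442 bp. Next to it Low alone held regions at 59.0 kb (chr11:112584291-112584637, 347 bp, its widest own region in the desert) and at 57.2 kb (148 bp). At 55.9 kb Sublow, Low and High had peaks of 375, 226 and 413 bp. At 19.8 kb (chr11:112623454-112623950) Low had 281 bp and High 497 bp, with none in Negative or Sublow.

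Between 100 and 500 kb upstream there were 7 regions, in a pair of groups. At 193.8 and 186.9 kb upstream both regions were held by Low and High only, and the second (chr11:112456251-112456922, the widest of that pattern in the desert) had peaks of 672 bp in Low and 251 bp in High. The other 5 lay from 412.4 to 454.5 kb upstream. At 435.6 kb (chr11:112207371-112208388) the middle of the reporter range had the wide peaks, with 811 bp for Sublow and 1018 bp for Low, against 167 bp for Negative and 233 bp for High. At 452.5 kb the widths were 215, 500, 592 and 664 bp in the order Negative, Sublow, Low and High. At 445.2 kb Sublow had 247 bp and Low 752 bp, and at 412.4 kb High alone had 422 bp.

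Farther than 500 kb upstream, Sublow and Low held smaller shares of regions than over the genome. The shares of Negative and High were nearer to their genome shares. The shares rest on 20 regions and were not tested. Of 20 regions, Negative held 9 (45.0%, against 53.9% over the genome), Sublow 8 (40.0%, against 62.8%), Low 8 (40.0%, against 69.8%) and High 14 (70.0%, against 65.1%). High alone held 7 (35.0%, against 16.6%). The widest of these lay 1269.6 kb upstream (chr11:111373593-111374170, 578 bp) and 1521.2 kb upstream (chr11:111122050-111122595, 546 bp). They were picked as the widest: own regions of High had a median of 232.5 bp in the desert, against 245 bp over the genome. Of the 20, 3 were held by all 4 lists (15.0%, against 33.1% over the genome), at 1357.2, 1673.9 and 1693.1 kb. The last, 129 bp inside the window, was the region of the desert farthest from Sox9. The nearest region outside this edge lay 1.4 kb beyond it and was held by Negative and Sublow.

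The far upstream part also held the few regions of Negative alone, of Sublow alone, and of Negative and Sublow only. Negative and Sublow only held a region 1542.0 kb upstream (chr11:111101121-111101859), with 739 bp in Negative and 163 bp in Sublow, and another 1079.5 kb upstream, with 333 bp in Negative and 261 bp in Sublow, a pattern of 3.17% of all regions. The single own region of Negative lay 1359.3 kb upstream (275 bp) and that of Sublow 1656.0 kb upstream (173 bp). At 1182.4 kb upstream Negative had 201 bp and High 120 bp with none in Sublow or Low, a pattern of 0.654% of all regions. The longest stretch with no peak in any list ran for 353.1 kb, from 111663494 to 112016573, and 5 of the 17 bins of 100 kb upstream were empty, against 0 of 5 downstream.

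Over the whole desert, 30 of 95 regions were held by all 4 lists (31.6%, interval 22.4 to 41.9%), close to the 33.1% of all regions in the genome. Regions of 2 or 3 lists numbered 39 (41.1%, 31.1 to 51.6%), against 34.9%, and regions of 1 list 26 (27.4%, 18.7 to 37.5%), against 31.9%. High alone held 16 (16.8%, 9.94 to 25.9%), near its 16.6% over the genome, and Low alone held 8 (8.42%, 3.71 to 15.9%), near its 6.41%. Negative alone held 1 (1.05%, 0.0266 to 5.73%), against 6.82% over the genome, and Sublow alone held 1, against 2.06%. The number for Negative alone was 3 of 80 with peaks of at least 200 bp (3.75%, against 5.52%), 2 of 41 with the widest peaks (4.88%, against 10.5%) and 8 of 117 with a reciprocal overlap of 50% (6.84%, against 9.99%). The own regions of Low had a median width of 155 bp (205 bp over the genome) and those of High 232.5 bp (245 bp over the genome). Regions of all 4 lists had a median of 679.5 bp (743 bp over the genome). The genome thus had the same order. A region of all 4 lists spans the merged peaks of each, so its width is not that of a single peak.

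Regions that Low or High held and Negative lacked made up a larger share of the desert than of the genome. High held 41 regions that Negative lacked (43.2%, interval 33.0 to 53.7%), against 30.4% over the genome, and Negative held 9 that High lacked (9.47%, 4.42 to 17.2%), against 19.2%. Low held 37 that Negative lacked (38.9%, 29.1 to 49.5%), against 27.1%, and Negative held 4 that Low lacked (4.21%, 1.16 to 10.4%), against 11.2%. Sublow held 18 that Negative lacked (18.9%, 11.6 to 28.3%), against 17.1%, and Negative held 3 that Sublow lacked (3.16%, 0.656 to 8.95%), against 8.15%. Low held 21 that Sublow lacked (22.1%, 14.2 to 31.8%), against 13.1%, and Sublow held 3 that Low lacked, against 6.1%. High held 30 that Sublow lacked (31.6%, 22.4 to 41.9%), against 23.6%, and Sublow held 13 that High lacked (13.7%, 7.49 to 22.3%), against 21.3%. Between High and Low the numbers were nearly even, with 17 held by High and not Low (17.9%, against 18.2%) and 18 held by Low and not High (18.9%, against 22.8%). These comparisons reuse the same 95 regions and are not separate results.

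**Figure D4:**
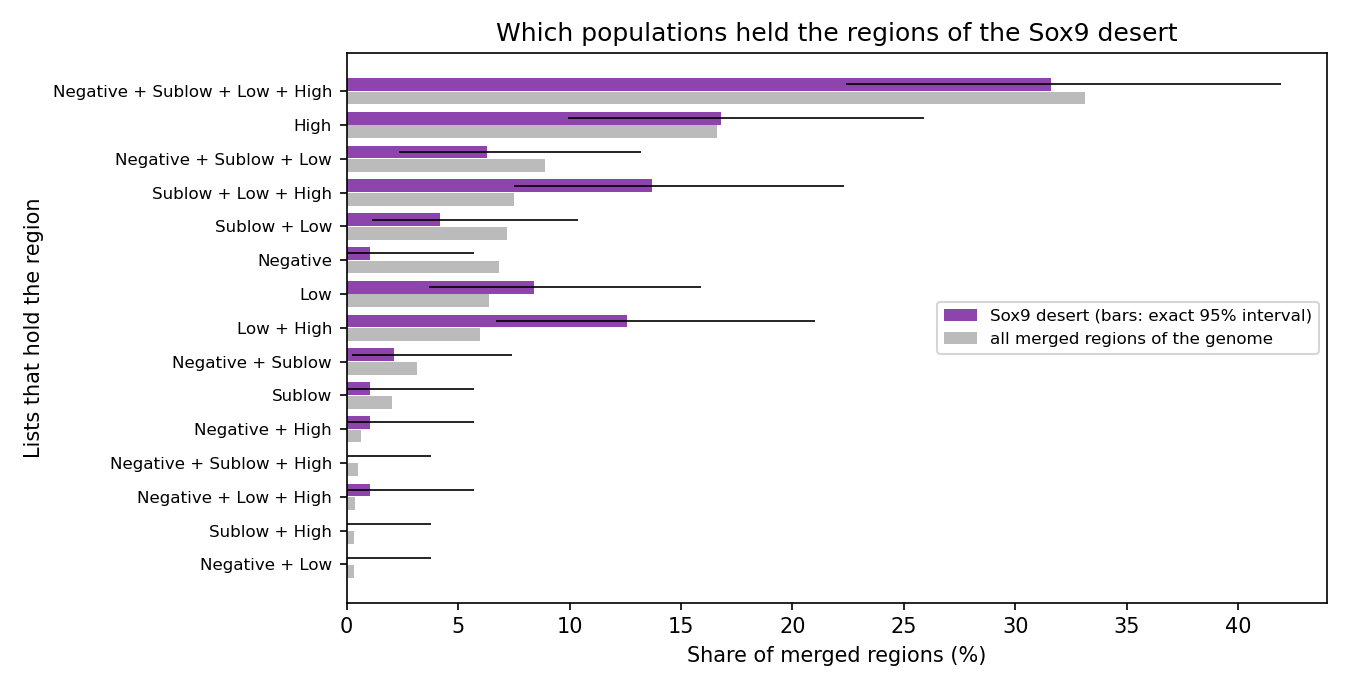
Share of the 95 desert regions with each combination of lists (purple, upper bars, with exact 95% intervals) beside the share among the 82365 merged regions of the genome (grey, lower bars). The x axis is the percentage of regions. Regions of Low and High only were 12.6% of the desert and 5.98% of the genome (4.88% and 2.8% with the widest peaks of each list only), and regions missing from Negative only were 13.7% and 7.49%.

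Regions of Low and High only numbered 12 (12.6%, interval 6.7 to 21.0%), 6 upstream and 6 downstream, against 5.98% over the genome. They were 2 of 41 (4.88%, against 2.8%) with the widest peaks of each list in equal number, and 8 of 117 (6.84%, against 4.48%) when peaks were joined by a reciprocal overlap of 50%. Regions missing from Negative only numbered 13 (13.7%, 7.49 to 22.3%), of which 12 were downstream, against 7.49%. Regions missing from High only numbered 6 (6.32%, 2.35 to 13.2%), against 8.92%, and 0 of 95 were missing from Low only (exact interval up to 3.81%), against 0.526%. Sublow and Low only held 4 (4.21%, 1.16 to 10.4%), against 7.18%. Among the 39 regions of 2 or 3 lists, 37 joined populations of adjacent reporter level (94.9%, 82.7 to 99.4%), near the 93.7% over the genome. The exceptions were the regions at 38.2 kb downstream and 1182.4 kb upstream described above.

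Peak widths within common regions did not follow the reporter order to its end. In the 28 desert regions with 1 peak per list, the median peak of Negative was 376 bp wide (range 115 to 1305), that of Sublow 577.5 bp (200 to 1408), that of Low 586 bp (194 to 1395) and that of High 511 bp (162 to 1380). In the rest of the genome the medians of such regions were 529, 658, 643 and 565 bp in the same order, so the desert medians were lower in each list. The Negative peak was the narrowest in 14 of the 28 (interval 30.6 to 69.4%), against 56.9% over the genome, and the widest in 0 of 28, where the exact interval reaches to 12.3%, against 8.95%. Sublow was the widest in 12 (42.9%, 24.5 to 62.8%), against 39.2%, and Low in 8 (28.6%, 13.2 to 48.7%), against 34.1%. High was the widest in 8 (28.6%, 13.2 to 48.7%), against 19.3%, and the narrowest in 9 (32.1%, 15.9 to 52.4%), against 32.7%. Low was the narrowest in 4 (against 7.62%) and Sublow in 1 (against 3.55%). All of these genome shares lie inside the intervals of the desert.

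**Figure D5:**
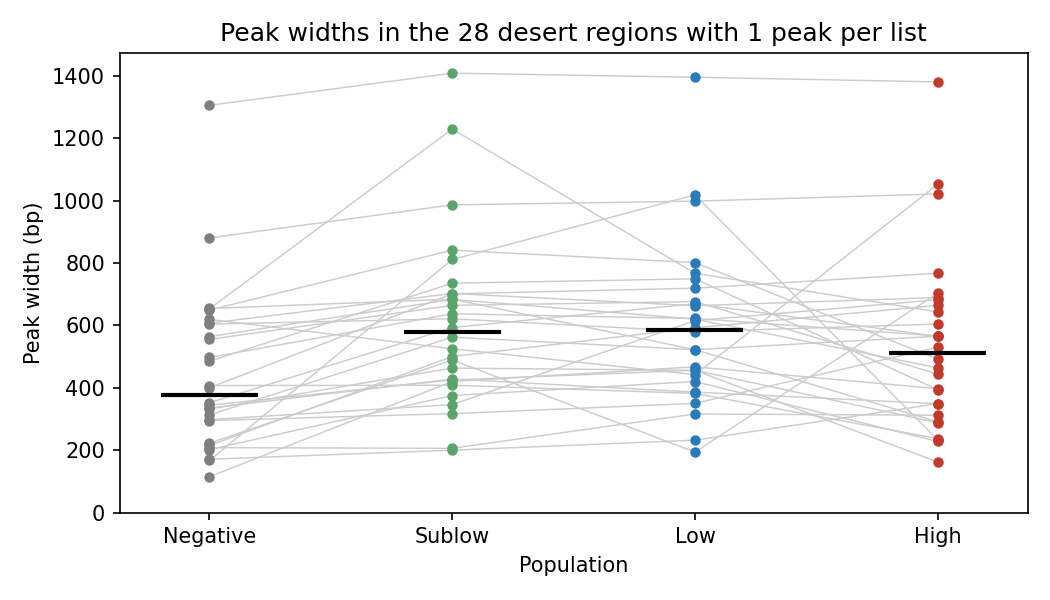
Widths of the peaks in the 28 desert regions that had 1 peak in each list. The y axis is peak width in bp, each point is 1 peak, grey lines join the peaks of 1 region and the black bars are medians. The Negative median was 376 bp, the Sublow median 577.5 bp, the Low median 586 bp and the High median 511 bp.

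The sides of the gene differed in how High compared with the other lists in these common regions. In the 21 downstream regions the median High peak was 492 bp, near the 485 bp of Negative and below the 637 bp of Sublow and 620 bp of Low. In the 7 upstream regions the median was 530 bp in High, 522 bp in Low, 500 bp in Sublow and 298 bp in Negative. With 7 regions upstream this contrast rests on few values and was not tested.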

How the data were processed

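The 12 Omni-ATAC-seq libraries (3 for each of 4 sorted populations) entered through 1 consensus peak list per population, as deposited by the authors. Each list has a chromosome, start, end and name, in mm9 positions. The submitters' processing notes name MACS2 2.1.2, deepTools 2.5.2, Picard 2.10.3, Bowtie2 2.3.4 and Trim Galore 0.4.3, without role or setting. The rule for combining libraries and any Tn5 offset are not given in the sources used here.

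Some peaks start and end on the same base, so widths are end minus start plus 1. Peaks of different lists were joined into 1 region where they touched or shared 1 bp or more. The window and the Sox9 position were given with the definition of the locus. The members, distance bins and naming rule (regions within 10 kb of the gene, the widest of each pattern and list, the nearest and the farthest) were chosen with earlier results of these data known. Other regions were named after their values were seen. Backgrounds are all merged regions of the genome. The windows used for ranking were consecutive, from the start of each chromosome. Merging was tested on simulated data with at most 1 peak per list in each region. Split peaks, and peaks joined only through another list, were not part of that test. Motifs and peak sequences were not analysed here. Tables were made with pandas 2.3.3 and numpy 2.4.6 in Python 3.11.15, intervals with scipy 1.17.1 and figures with matplotlib 3.10.9.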

Additional observations from a re-analysis of the deposited data

How the results depend on the processing

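No paired analysis was possible because the lists hold nothing for single libraries, which also means that replicates could not be left out in turn. Motif searches were not run. Of 106 values recomputed, 74 stayed within 1.5-fold and 32 did not. Some alternatives could change little, so the tally is no measure of stability. Leaving out peaks within 10 kb of the gene, for instance, took Low from 75 to 71. With the 22730 widest peaks of each list Negative had 17 peaks, Sublow 25, Low 24 and High 28, in 41 regions, of which 17 were held by 1 list, 4 by 2, 11 by 3 and 9 by 4. In that setting Negative had 2 own regions, Sublow 3, Low 3 and High 9, regions missing from 1 list only numbered 6 for Negative, 0 for Sublow, 2 for Low and 3 for High, and Low and High only held 2. These lists hold fewer peaks by construction, and the order of Sublow and Low turned. With peaks of at least 200 bp, 17 regions were held by 1 list, own regions numbered 3 in Negative and 2 in Low, and 0 regions were missing from Sublow only and 1 from Low only. With a reciprocal overlap of 50%, 55 regions were held by 1 list, and Negative had 8 own regions, Sublow 5, Low 17 and High 25. Desert density over background was 1.1 for Negative, 1.29 for Sublow, 1.54 for Low and 1.63 for High against the rest of the genome, and 0.675, 0.815, 0.986 and 1.02 in the same order against the rest of chromosome 11. Negative had the fewest desert peaks in each of the 4 alternatives that gave peak numbers. Depth is unknown, so a region missing from a list may have been closed or missed.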
